A study of Homo sapiens with 12 samples.

Results

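The solute carriers (SLC genes) outside the mitochondrial SLC25 family were described after cisplatin in ES-2 cells, an established line of human ovarian cancer. Members were the rows of the deposited table whose current symbol has the SLC pattern of a family number, a letter and a gene number. SLC25 genes and SLC31A1, SLC31A2 and SLC7A11 were left out. Of 261 rows named in this way, 43 were SLC25 genes and 3 the other genes left out, so 215 of 14029 genes remained, from 45 families. The choice used names alone and no measured value, though earlier results of these data were known when it was made. Cells carried either an shRNA (short hairpin RNA) against SRMS, a non-receptor tyrosine kinase, or the control vector PLKO, and both groups received 15 µM cisplatin, a platinum drug that crosslinks DNA, for 8 hours. Each group had 3 replicate libraries of poly(A) RNA. The labels do not give the number of hairpins or clones, and they do not say that replicates were separate cultures, so p-values below reflect only the scatter among these libraries, and that scatter may be technical. The PBS samples were not analysed here, so no response to cisplatin itself was measured.

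Solute carriers are membrane proteins that move amino acids, sugars, ions, metals, nucleosides, vitamins and other small molecules across the plasma membrane and the membranes of organelles. Some are facilitators that let a substrate run down its gradient, and others couple it to sodium, protons or a counter-substrate. Several work only with a partner: SLC7A5, the carrier of large neutral amino acids, needs the glycoprotein chain SLC3A2, and the lactate carriers SLC16A1 and SLC16A3 need basigin (BSG) to reach the cell surface. Tumour cells commonly draw on such carriers for glutamine, essential amino acids, glucose and the export of lactate.

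Values are a signal scaled like CPM, that is, reads relative to an effective library size, and reads recovered from it came to 28009232, 38072051 and 32577706 in the libraries labelled SRMS shRNA (SRMS-labelled libraries below), against 29072793, 45323697 and 56855428 in the vector libraries. The targeted gene did not bear out the labels. SRMS had 9, 39 and 27 reads in the SRMS-labelled libraries and 2, 14 and 47 reads in the vector libraries. Its signal was 0.328, 1.07 and 0.863 in the SRMS-labelled libraries, against 0.0669, 0.306 and 0.819 in the vector libraries, so the groups overlapped and the difference leaned towards more SRMS under its shRNA label (log2 fold change 0.52, SE 0.30, limma adjusted p = 0.168; two-sided exact permutation p = 0.2, and 0.1 is the smallest value this design allows). In the fit blocked by replicate number it passed in that direction (limma adjusted p = 0.00782, with 0.00782 to 0.527 over all alternatives), and so it did without vector replicate 3 (log2 fold change 0.84) or without SRMS-labelled replicate 1 (0.79). Every direction below is therefore a direction between libraries as labelled. Among ES-2 markers, the keratins KRT8 and KRT18 and vimentin (VIM) were abundant and higher in the SRMS-labelled libraries (log2 fold changes 0.18, 0.21 and 0.29), WT1 was low and fell, with 1.496, 1.37 and 1.37 in SRMS-labelled and 3.21, 2.73 and 2.58 in vector libraries (log2 fold change -0.80, limma adjusted p = 0.000175), PAX8 was near 0, and KRT19, EPCAM, the leukocyte genes PTPRC and CD3E, VWF, DCN and LUM have no row in the table. The marker list of leukocytes had 3 of 5 genes in the table, with a summed signal of 60.2 to 64.6 in SRMS-labelled and 49.3 to 52.1 in vector libraries, most of it CD68. The endothelial list had 3 of 4 genes and summed to 5.88 to 8.36 in SRMS-labelled and 14.8 to 16.8 in vector libraries. The fibroblast list had 3 of 5 genes, with COL1A1 making up nearly all of 814 to 821 in SRMS-labelled and 1237 to 1239.5 in vector libraries while COL1A2 was near 0. Single genes of these lists passed the test in either direction, with log2 fold changes of 1.45 for CD14, 0.23 for CD68, -1.25 for CDH5 and -0.60 for COL1A1. The part of these markers in the results was not tested.

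Carriers moved in both directions and mostly by little, as did genes over the whole table. Of the 215 members, 47 rose and 55 fell in the SRMS-labelled libraries relative to vector (limma on log2(signal + 0.5), Benjamini-Hochberg adjusted p under 0.05 over all 14029 genes). That is 47.4% of members, where 56.8% of all genes passed; 26.6% of all genes passed as higher and 30.2% as lower. The median log2 fold change was -0.017 for members, against 0.0031 for all genes. In 116 members (54.0%) the 3 values of each group did not overlap, where 62.7% of all genes showed this. Of the 102 carriers that passed, 70 differed by less than 0.5 on the log2 scale, where 5575 of the 7969 genes that passed did. Only 4 members reached an absolute log2 fold change of 1, where 2.08% of all genes did: SLC26A3 and SLC27A5 above, SLC6A17 and SLC41A3 below. Fold changes on this scale understate those of weakly expressed genes, and 46 members had a mean signal under 1. On recovered reads edgeR put 16 members past that size and DESeq2 put 13. The share of all genes past it by these 2 tests is not given here, so these counts cannot be set against the 2.08%. Exons of 28 of the 102 overlap exons of another protein-coding gene in GENCODE 29, in 25 of them only on the opposite strand; whether the counting used strand is not given in the sources used here, so reads of such pairs may not be separated. In bulk RNA, fewer cells of a type and less RNA per cell cannot be told apart.

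The balance of directions depended on how the libraries were scaled. When each library was aligned on its median, the median log2 fold change of all genes moved by 0.16, and 81 members were then higher and 30 lower, where 44.6% of all genes were higher and 17.9% lower. In the fit blocked by replicate number, 55 members were higher and 69 lower, where 31.0% of all genes were higher and 34.3% lower. edgeR on recovered reads called 52 higher and 54 lower, where it called 27.7% and 29.7% of all genes. Under every alternative that could be computed for them, 30 higher and 28 lower carriers passed in the same direction, or 14.0% and 13.0% of members, where 15.2% and 17.1% of all genes did. Aligned on the median, 25 of the carriers that fell no longer passed. Of those named below these were SLC7A2, SLC15A4, SLC36A4, SLC66A1, SLC2A8, SLC37A4, SLC26A2, SLC26A11, SLC20A2, SLC30A4, SLC30A5, SLC30A6, SLC30A7, SLC39A14, SLC27A4, SLC46A3, SLC48A1 and SLC23A2. A fit blocked by replicate number with the trends of transcript length and GC content removed from each library ended 19 calls. Of those named below these were SLC7A2, SLC36A4, SLC50A1, SLC45A1, SLC26A2, SLC30A4, SLC30A5, SLC30A6, SLC30A7, SLC35B4, SLC22A18, SLC46A3, SLC66A3 and SLC23A2. How many calls of all genes were lost under the alignment or the trend removal is not given here.

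**Figure D1:**
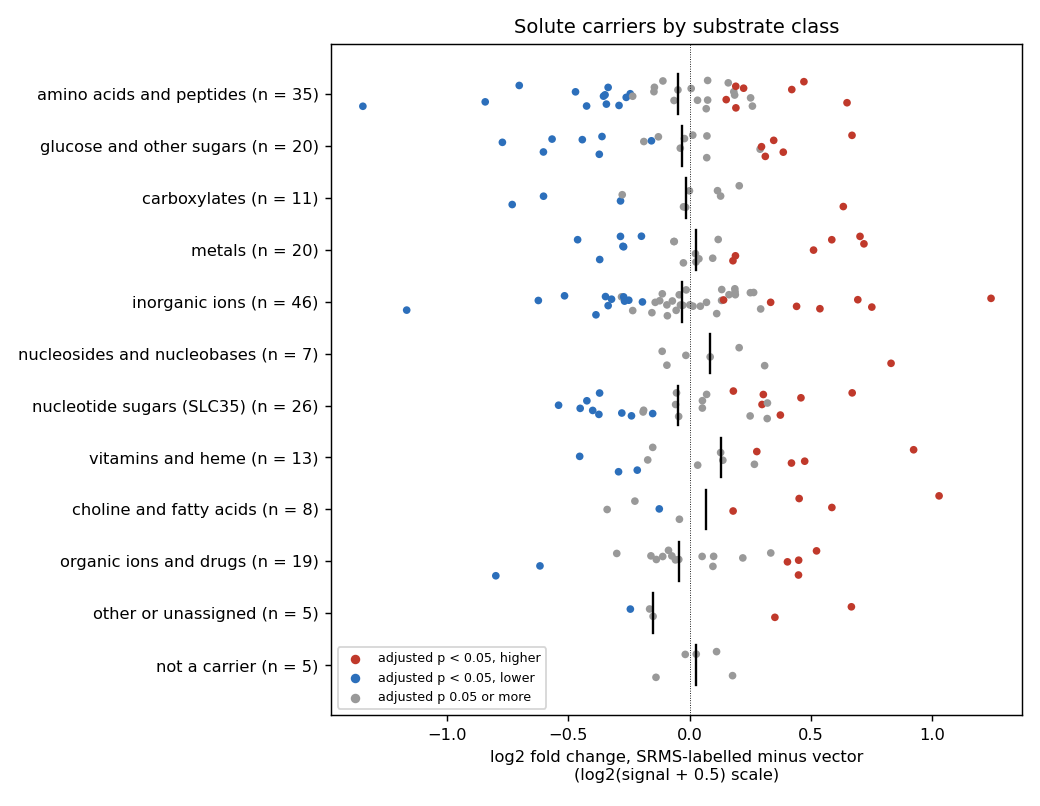
Log2 fold change, SRMS-labelled minus vector libraries, on the log2(signal + 0.5) scale, for each carrier, with 1 row per substrate class. Points are genes, coloured by whether they passed as higher, passed as lower or did not pass limma's adjusted p of 0.05; the amino acid row has 7 higher and 12 lower genes, and the metal row 6 of each.

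Amino acid carriers moved in both directions, also within families. SLC38A2, SLC38A1 and 4 of 7 SLC7 carriers were lower in the SRMS-labelled libraries, while SLC3A2 and SLC1A5, the most abundant genes of the class per kilobase of transcript, were higher. Of 35 carriers of amino acids and peptides, 7 rose, 12 fell and 16 did not pass, with a median log2 fold change of -0.049; with libraries aligned on the median, 11 were higher and 8 lower. SLC38A2, a sodium-coupled importer of glutamine and other small neutral amino acids, had a signal of 166, 154 and 158 in the SRMS-labelled libraries, against 288, 284 and 286 in the vector libraries. The groups were far apart and each was tight, with a mean of 159 ± 6.52 in SRMS-labelled and 286 ± 2.08 in vector libraries (SD, n = 3 each; log2 fold change -0.84, SE 0.037, limma adjusted p = 1.58e-07). Its neighbour SLC38A1, another glutamine importer, had 56.6, 52.5 and 51.3 in SRMS-labelled and 72.9, 71.6 and 71.2 in vector libraries, again with no overlap (log2 fold change -0.43, SE 0.045, limma adjusted p = 2.95e-05). SLC38A1 lies at chr12:46183063-46270017 and SLC38A2 at chr12:46358189-46372867 (GRCh38), both on the minus strand. SLC38A4, next along chromosome 12 at chr12:46764761-46832408, did not pass (log2 fold change 0.16, limma adjusted p = 0.368; 95% interval -0.16 to 0.47), though with the length and GC trend removed it passed as higher (0.31, limma adjusted p = 0.0315). SLC38A7, a lysosomal member, fell (-0.34), and SLC38A10 rose (0.22). Of carriers named after their values were seen, SLC15A4, a lysosomal protein that carries histidine and small peptides (log2 fold change -0.35, limma adjusted p = 0.00694), SLC66A1, a lysosomal carrier of cationic amino acids (log2 fold change -0.34, limma adjusted p = 0.00448), and SLC36A4, a relative of the lysosomal carrier SLC36A1 (log2 fold change -0.25, limma adjusted p = 0.00822), fell. SLC36A1 and SLC38A9, the arginine sensor of the lysosome, did not pass (log2 fold changes 0.032 and -0.049; 95% intervals -0.15 to 0.21 and -0.35 to 0.25). With libraries aligned on the median SLC15A4, SLC66A1 and SLC36A4 kept their sign but no longer passed (limma adjusted p = 0.0793, 0.0802 and 0.256). Once the length and GC trends were taken out, SLC36A4 changed sign, to 0.017 (limma adjusted p = 0.784), and SLC36A1 passed as higher (0.19, limma adjusted p = 0.0321).

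In the SLC7 family 1 of 7 genes rose and 4 fell; aligned on the median, 2 were higher and 3 lower. SLC7A1, the main carrier of arginine and lysine, had 17.8, 15.04 and 15.6 in SRMS-labelled and 30.2, 25.5 and 24.2 in vector libraries, the lowest vector value standing well above the highest SRMS-labelled one (log2 fold change -0.70, SE 0.090, limma adjusted p = 9.75e-05). SLC7A5 had 136, 126 and 128 in SRMS-labelled and 159, 157 and 152 in vector libraries (log2 fold change -0.26, SE 0.039, limma adjusted p = 0.00026). Its partner chain SLC3A2 went the other way, with 614, 596 and 597 in SRMS-labelled and 466, 439 and 446 in vector libraries (log2 fold change 0.42, SE 0.034, limma adjusted p = 4.72e-06). Per kilobase of transcript, the level of SLC3A2 was 9.49, 9.93 and 9.803 times that of SLC7A5 in the SRMS-labelled libraries, against 6.16, 5.89 and 6.14 times in the vector libraries, so the ratio was higher in every SRMS-labelled library. SLC7A6, which also pairs with SLC3A2, fell (-0.36), and so did the arginine carrier SLC7A2 (-0.29). The log2 fold change of SLC7A2 was -0.13 aligned on the median (limma adjusted p = 0.101) and -0.028 once the length and GC trends were taken out (limma adjusted p = 0.75), so neither fit called it. SLC7A6 overlaps SLC7A6OS on the opposite strand. SLC7A7, a further partner of SLC3A2, was weakly expressed and rose (1.59 ± 0.335 in SRMS-labelled and 1.01 ± 0.247 in vector libraries; log2 fold change 0.47, limma adjusted p = 0.0257); it lost the call without SRMS-labelled replicate 1 or 3 or vector replicate 1 or 2 (limma adjusted p = 0.0597 to 0.0958).

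SLC1A5, an exchanger of glutamine and other neutral amino acids, had 355, 363 and 358 in SRMS-labelled and 318, 326 and 326 in vector libraries; the groups did not overlap, yet the difference was small (log2 fold change 0.15, SE 0.031, limma adjusted p = 0.00189). It was the only 1 of 4 SLC1 genes to pass; SLC1A3 and SLC1A4, carriers of glutamate and of neutral amino acids, passed as higher aligned on the median (limma adjusted p = 0.00939 and 0.0121) and once the length and GC trends were taken out (0.00325 and 0.0187). SLC6A9, a glycine carrier, had 5.801, 5.004 and 4.86 in SRMS-labelled and 3.04, 2.75 and 3.69 in vector libraries (log2 fold change 0.65, SE 0.12, limma adjusted p = 0.000989). The creatine carrier SLC6A8 rose by less (0.19) and the taurine carrier SLC6A6 fell (-0.47). SLC6A17, a vesicular carrier of neutral amino acids known from neurons, had the largest drop of any member. Its signal was 0.328, 0.302 and 0.1599 in SRMS-labelled libraries, against 1.41, 1.397 and 1.499 in vector libraries. These values rested on 9, 11 and 5 reads in SRMS-labelled and 42, 64 and 86 reads in vector libraries, so the gene was at a low level in both groups (log2 fold change -1.35, SE 0.13, limma adjusted p = 1.3e-05; -2.43 by edgeR).

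**Figure D2:**
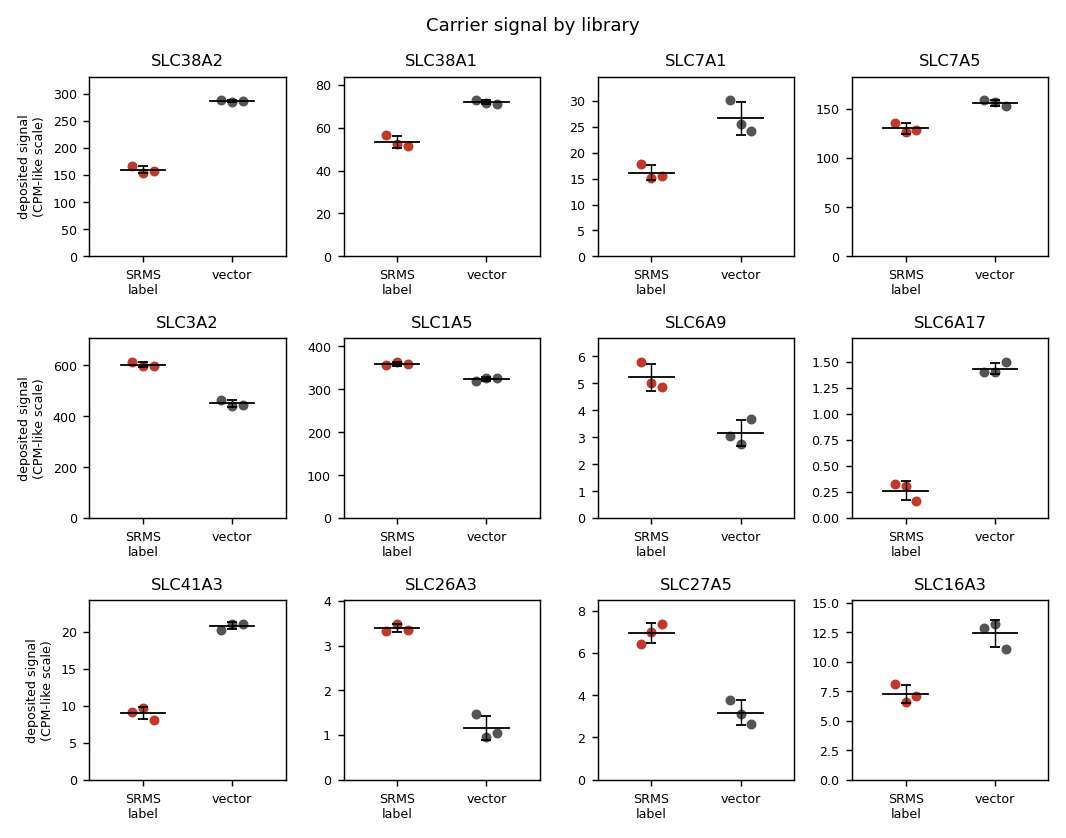
Deposited signal (CPM-like scale) of 12 carriers in each library, SRMS-labelled libraries on the left of each panel and vector libraries on the right; points are libraries, long bars group means and short bars SDs, and each vertical axis starts at 0. The groups do not overlap in any of these panels.

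The promoters of these amino acid carriers are shown because the carriers moved in opposite directions and SLC38A1 and SLC38A2 are neighbours. Each line gives the 250 bases before the gene start in RefSeq (GRCh38.p14), 5′ to 3′ on the gene's strand, and capitals mark matches to the searched motifs.
SLC38A2, chr12:46372774-46373023, minus strand: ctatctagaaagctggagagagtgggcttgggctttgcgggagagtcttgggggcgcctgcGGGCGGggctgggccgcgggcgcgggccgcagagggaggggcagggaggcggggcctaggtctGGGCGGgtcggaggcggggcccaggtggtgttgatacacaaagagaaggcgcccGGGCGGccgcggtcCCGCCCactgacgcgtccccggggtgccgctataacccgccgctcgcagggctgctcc
SLC38A1, chr12:46266517-46266766, minus strand: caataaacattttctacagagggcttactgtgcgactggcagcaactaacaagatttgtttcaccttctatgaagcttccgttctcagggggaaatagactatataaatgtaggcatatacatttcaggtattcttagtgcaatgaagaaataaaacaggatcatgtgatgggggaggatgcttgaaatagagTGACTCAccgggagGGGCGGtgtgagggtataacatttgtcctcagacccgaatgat
SLC7A5, chr16:87869508-87869757, minus strand: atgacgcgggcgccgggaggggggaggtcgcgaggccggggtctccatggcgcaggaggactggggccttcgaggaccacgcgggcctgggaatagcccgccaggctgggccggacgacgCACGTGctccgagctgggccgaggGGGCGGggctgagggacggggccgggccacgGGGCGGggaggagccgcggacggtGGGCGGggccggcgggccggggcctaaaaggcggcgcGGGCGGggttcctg
SLC3A2, chr11:62881449-62881698, plus strand: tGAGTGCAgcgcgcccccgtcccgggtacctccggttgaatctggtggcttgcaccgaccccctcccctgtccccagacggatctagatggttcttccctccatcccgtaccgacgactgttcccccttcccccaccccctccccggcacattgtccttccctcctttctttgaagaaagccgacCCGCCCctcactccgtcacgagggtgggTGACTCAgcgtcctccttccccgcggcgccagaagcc
In SLC38A2 and SLC7A5 the capitals are GC boxes (GGGCGG on either strand), with 4 in each, and in SLC7A5 also an E-box (CACGTG). SLC38A1 and SLC3A2 have 1 GC box each and an AP-1 site (TGANTCA), and the capitals at the start of SLC3A2 are a metal response element core of the second form (TGCACNC, here on the other strand). RefSeq's start can differ from that of the GENCODE transcript used for length. A match is a description of letters in this window.

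RefSeq promoters were matched by symbol for 169 of the 215 members and set beside 27305 promoters of the same length. These 27305, called all promoters below, were not limited to genes of the deposited table, from which all members come. The shares below therefore do not compare members with the other genes tested, and a difference cannot be assigned to carriers. The GC box was found in 66.3% of members' promoters and 42.3% of all promoters. It was in 61.1% of 36 promoters of members that rose and 78.6% of 42 promoters of members that fell. The E-box was in 8.88% of members' promoters and 6.49% of all promoters, and the AP-1 site in 8.88% of members' promoters and 6.6% of all promoters. The CCAAT box (CCAAT) was in 30.8% of members' promoters and 33.0% of all promoters. The metal response element core TGCGCNC was in 20.1% of members' promoters and 16.9% of all promoters, and its form TGCACNC in 8.88% of members' promoters and 9.73% of all promoters. The C/EBP-ATF element (TTGCATCA), through which amino acid shortage is known to act on some carrier genes, was in 1 member's promoter, or 0.592%, against 0.82% of all promoters. All motifs were searched on both strands, and none of these shares was tested.

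Sugar carriers also moved both ways, and whether the basal glucose carrier SLC2A1 passed depended on the scaling. Of 20 members 5 rose and 7 fell, and their log2 fold changes had a median of -0.031; the split turned to 7 higher and 5 lower with libraries aligned on the median. SLC2A1 (GLUT1), the basal glucose carrier of most tumour cells, had 68.9, 71.5 and 70.6 in SRMS-labelled and 64.4, 69.2 and 67.5 in vector libraries and did not pass (log2 fold change 0.070, limma adjusted p = 0.175; 95% interval -0.022 to 0.16). It passed as higher aligned on the median (log2 fold change 0.23, limma adjusted p = 0.00104) and once the length and GC trends were taken out (0.11, limma adjusted p = 0.00285). SLC2A3 (GLUT3), which has a high affinity for glucose, had 44.8, 44.2 and 42.5 in SRMS-labelled and 35.1, 33.97 and 34.1 in vector libraries (log2 fold change 0.35, SE 0.045, limma adjusted p = 0.000106). The near-identical copy SLC2A14 could share its reads. SLC2A3 rose relative to vector, while SLC2A6 fell (-0.60) and SLC2A8, an intracellular carrier, fell (-0.36). SLC50A1, a small glucose carrier, and SLC5A2 (SGLT2), known as the sodium-glucose cotransporter of the kidney, rose by 0.31 and 0.30 on the log2 scale.

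The lowest sugar carriers were in other families. SLC45A4, a proton-coupled carrier related to sucrose carriers, had 4.52, 4.15 and 3.96 in SRMS-labelled and 7.66, 7.97 and 7.02 in vector libraries (log2 fold change -0.77, SE 0.092, limma adjusted p = 5.81e-05). SLC5A3, which imports myo-inositol, had 10.1, 6.93 and 6.298 in SRMS-labelled and 13.2, 10.7 and 10.8 in vector libraries, with replicate 1 the highest in both groups (log2 fold change -0.57, limma adjusted p = 0.00935). SLC5A3 shares exons with MRPS6 on the same strand, so reads of the 2 genes may not be separated. Of the sugar-phosphate family SLC37, SLC37A3 fell (-0.44), as did SLC37A4, the glucose-6-phosphate carrier of the endoplasmic reticulum (-0.16); SLC37A4 lost the call without SRMS-labelled replicate 3 or vector replicate 1, 2 or 3 (limma adjusted p = 0.0576 to 0.0934) and changed sign, to 0.0019, aligned on the median. In SLC45 all 4 genes passed, SLC45A1 and SLC45A2 as higher and SLC45A3 and SLC45A4 as lower; the higher ones were near a signal of 1 or under it, and SLC45A1 lost the call without SRMS-labelled replicate 2 or vector replicate 2 (limma adjusted p = 0.0504 to 0.0619).

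Lactate carriers were lower and their chaperone was higher. SLC16A1 (MCT1) had 151, 137 and 142 in SRMS-labelled and 175, 172 and 177 in vector libraries (log2 fold change -0.29, SE 0.042, limma adjusted p = 0.000232). SLC16A3 (MCT4), the lactate exporter of glycolytic cells, had 8.14, 6.57 and 7.13 in SRMS-labelled and 12.9, 13.3 and 11.1 in vector libraries (log2 fold change -0.73, SE 0.098, limma adjusted p = 0.000131). Per kilobase its level was 0.0487, 0.0436 and 0.0456 of that of SLC16A1 in SRMS-labelled libraries, against 0.0668, 0.0699 and 0.0568 in vector libraries. SLC16A5 fell too (-0.60). BSG, the chaperone of both lactate carriers, had 826, 960.4 and 950.3 in SRMS-labelled and 651, 726 and 711 in vector libraries, so it rose where they fell (log2 fold change 0.39, SE 0.061, limma adjusted p = 0.000351). Among 11 carboxylate carriers these 3 were the only ones to fall and SLC13A3, a sodium-coupled dicarboxylate carrier, was the only one to rise (19.3, 17.8 and 17.6 in SRMS-labelled and 11.4, 11.7 and 11.7 in vector libraries; log2 fold change 0.63, SE 0.065, limma adjusted p = 2.22e-05). SLC13A3 shares exon bases with TP53RK on the same strand, so reads of these genes may not be separated. With libraries aligned on the median, 2 of the 11 were higher and 3 lower.

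Of 28 listed partner and regulator genes of carriers, 22 were in the table. Of these 7 rose and 8 fell (68.2%), where 56.8% of all genes passed. Aligned on the median 10 were higher and 5 lower, where 44.6% and 17.9% of all genes were. The list was drawn up with earlier results of these data known, so its counts are a description only. TXNIP, an arrestin that takes glucose carriers off the cell surface, had 27.9, 25.9 and 26.1 in SRMS-labelled and 59.5, 52.4 and 54.3 in vector libraries, a drop larger than that of any carrier discussed except SLC6A17 and SLC41A3 (log2 fold change -1.04, SE 0.057, limma adjusted p = 5.61e-07). Its relative ARRDC4 fell by less (-0.40). The sodium pump supplies the gradient for sodium-coupled carriers. Its beta subunit ATP1B3 did not pass (log2 fold change 0.061; 95% interval -0.017 to 0.14). It passed as higher with the replicate block (limma adjusted p = 0.0219) and with libraries aligned on the median (0.000549), while edgeR gave 0.134. Another beta subunit, ATP1B1, fell (-0.25), but not aligned on the median (-0.090, limma adjusted p = 0.0614). The ubiquitin ligase NEDD4L (0.25), LAPTM4B (0.26), a lysosomal partner of SLC7A5 and SLC3A2, and ARL6IP5 (0.20), which binds a glutamate carrier, rose. With the length and GC trend removed LAPTM4B changed sign, to -0.039 (limma adjusted p = 0.134). MTF1, the zinc-sensing transcription factor, fell (12.4, 13.8 and 11.99 in SRMS-labelled and 20.8, 18.5 and 18.8 in vector libraries; log2 fold change -0.59, SE 0.076, limma adjusted p = 0.000102).

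**Figure D3:**
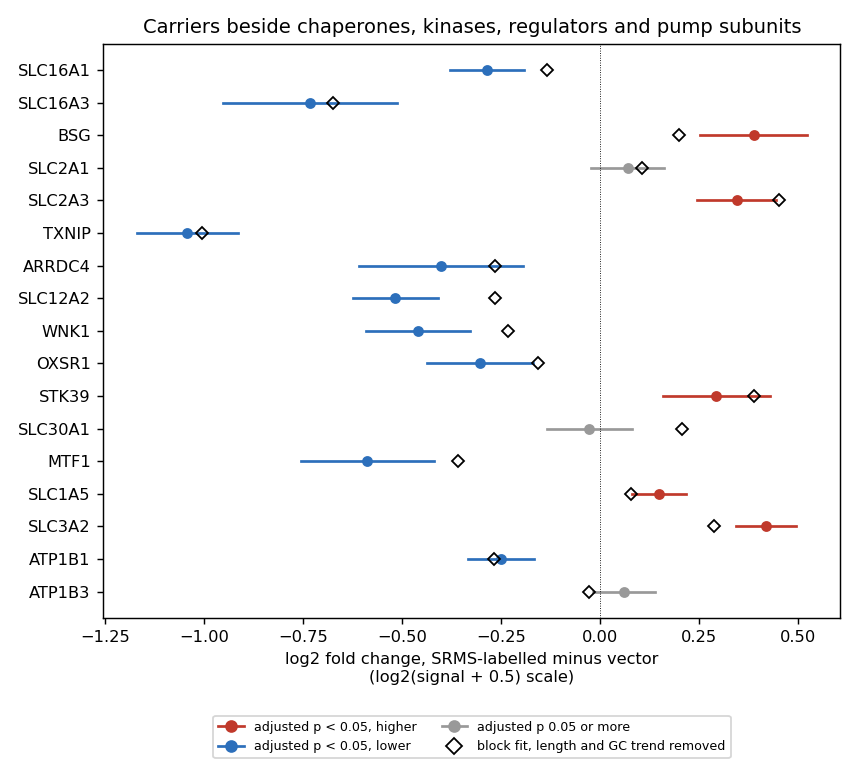
Log2 fold change, SRMS-labelled minus vector libraries, of carriers and the partner genes named beside them, with 95% intervals from limma; points are coloured by the call, and open diamonds give the replicate block fit with the length and GC trend removed. BSG lies above 0 where SLC16A1 and SLC16A3 lie below it, and TXNIP lies lowest, at -1.04.

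Zinc carriers of both families passed, and the balance within each depended on the scaling. Proteins of the SLC39 (ZIP) family bring zinc into the cytosol and those of the SLC30 (ZnT) family take it out, into organelles or out of the cell. Of 13 SLC39 genes 6 rose and 2 fell, and of 6 SLC30 genes 0 rose and 4 fell. Of the 6 SLC30 genes, 0 also rose at an unadjusted limma p under 0.05, by edgeR and by DESeq2. Aligned on the median, the SLC39 split was 10 higher and 1 lower, and SLC30 counted 2 higher and 0 lower. These 2 were SLC30A1 and SLC30A9, which had not passed before. The 4 SLC30 genes that fell kept a negative sign there (log2 fold changes -0.21 to -0.039) but no longer passed. SLC30 transcripts are long, with a median of 5846 nt against 2723 nt for SLC39. With the length and GC trend removed and replicates blocked, SLC30 again had 2 higher and 0 lower and SLC39 had 6 higher and 3 lower. All 20 metal carriers together gave 6 higher and 6 lower, or 12 and 1 aligned on the median; the lower count was 3 without vector replicate 3.

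SLC39A4, the plasma membrane zinc importer mutated in acrodermatitis enteropathica, had 16.4, 19.1 and 21.1 in SRMS-labelled and 11.01, 13.5 and 12.7 in vector libraries (log2 fold change 0.59, SE 0.10, limma adjusted p = 0.000639). SLC39A7, which releases zinc from the endoplasmic reticulum, was the most abundant zinc carrier per kilobase and had 197, 186 and 189 in SRMS-labelled and 168, 163 and 171 in vector libraries (log2 fold change 0.19, SE 0.037, limma adjusted p = 0.00146). The groups of both genes stood apart, the second by a small margin. SLC39A6 rose by a like amount (0.18), and the weakly expressed SLC39A2, SLC39A5 and SLC39A11 rose by 0.72, 0.70 and 0.51, with mean signals of at most 3.04 in SRMS-labelled and 1.95 in vector libraries. SLC39A10, the partner of SLC39A6, fell (15.8, 11.5 and 12.7 in SRMS-labelled and 18.8, 17.9 and 18.5 in vector libraries; log2 fold change -0.46, SE 0.10, limma adjusted p = 0.00278). SLC39A14, which carries iron and manganese as well as zinc, fell (-0.27), though not with libraries aligned on the median.

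On the export side, SLC30A5 and SLC30A6, which work as a pair in the secretory pathway, fell by 0.20 and 0.29, SLC30A7 of the Golgi by 0.37 and SLC30A4 by 0.28 on the log2 scale. SLC30A6 lost the call without SRMS-labelled replicate 2 or vector replicate 3 (limma adjusted p = 0.0629 to 0.0792), SLC30A7 without vector replicate 3 (limma adjusted p = 0.0516), and SLC30A4 without SRMS-labelled replicate 2 or 3 or vector replicate 2 or 3 (limma adjusted p = 0.0765 to 0.0907). SLC30A1, the plasma membrane exporter and a known target of MTF1, had 44.7, 43.9 and 42.3 in SRMS-labelled and 46.3, 44.6 and 42.5 in vector libraries, with overlap (log2 fold change -0.026, limma adjusted p = 0.664; 95% interval -0.13 to 0.080); it passed as higher aligned on the median (0.13, limma adjusted p = 0.0295) and once the length and GC trends were taken out (0.21, limma adjusted p = 1.17e-05). The iron carrier SLC11A2 (DMT1) did not pass either (log2 fold change -0.066, limma adjusted p = 0.536; 95% interval -0.25 to 0.12), and the iron exporter SLC40A1 has no row in the table.

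**Figure D4:**
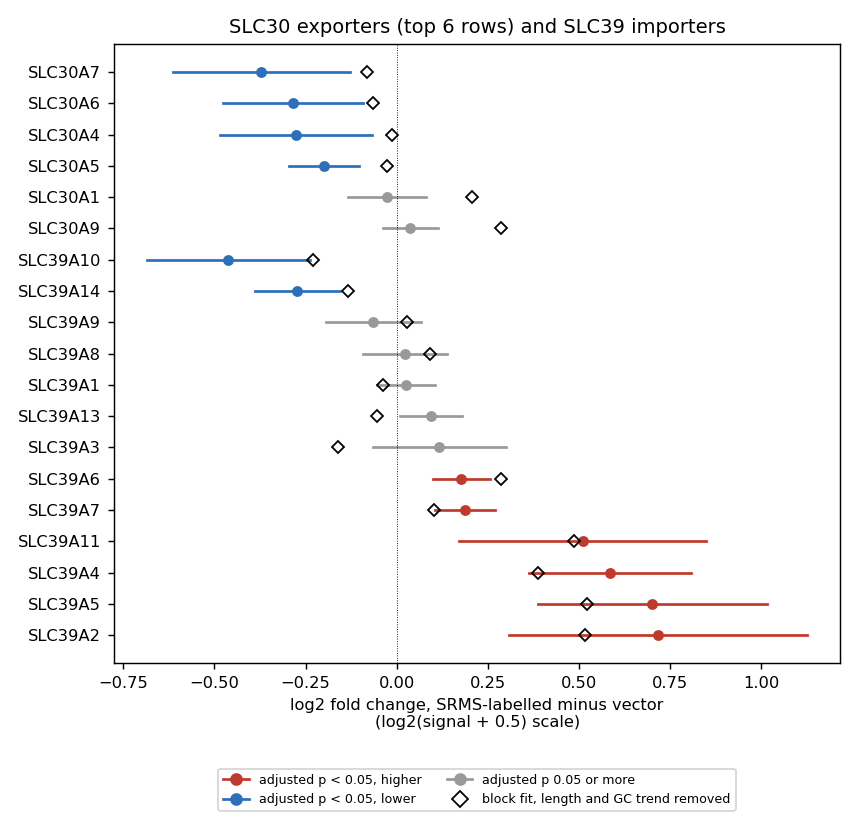
Log2 fold change, SRMS-labelled minus vector libraries, of the SLC30 (upper rows) and SLC39 (lower rows) zinc carriers, with 95% intervals from limma; colours give the call, and open diamonds the replicate block fit with the length and GC trend removed. Of the SLC30 genes 4 are coloured lower, and the diamonds of these 4 lie closer to 0.

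On the log2(signal + 0.5) scale, carriers of inorganic ions held the largest rise of any member, in SLC26A3, and the largest drop after SLC6A17, in SLC41A3. By edgeR, the weakly expressed SLC35F1, SLC17A9, SLC9C2, SLC35D3 and SLC52A1 had higher log2 fold changes than SLC26A3, of 1.89 to 2.58. Of 46, 7 rose and 11 fell, and aligned on the median this turned to 14 higher and 4 lower. SLC41A3, a magnesium carrier, had 9.16, 9.73 and 8.12 in SRMS-labelled and 20.2, 21.1 and 21.1 in vector libraries; no SRMS-labelled value came near the vector values (log2 fold change -1.17, SE 0.076, limma adjusted p = 1.46e-06). Its relatives SLC41A1 and SLC41A2 did not pass (log2 fold changes -0.16 and -0.28), though SLC41A1 passed as lower with the replicate block (limma adjusted p = 0.00112, with 0.000138 to 0.978 over all alternatives). SLC26A3, a chloride-bicarbonate exchanger mutated in congenital chloride diarrhoea, had 3.32, 3.49 and 3.36 in SRMS-labelled and 1.47, 0.961 and 1.05 in vector libraries (log2 fold change 1.24, SE 0.13, limma adjusted p = 2.51e-05). SLC26A4 (pendrin), an iodide and chloride exchanger, and SLC26A5 (prestin), the motor protein of outer hair cells, rose as well.

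Pendrin had 3.21, 2.23 and 2.94 in SRMS-labelled and 2.04, 1.64 and 1.603 in vector libraries (log2 fold change 0.54, SE 0.14, limma adjusted p = 0.00758), and prestin had 3.14, 2.39 and 2.75 in SRMS-labelled and 1.54, 1.14 and 1.66 in vector libraries (log2 fold change 0.75, SE 0.14, limma adjusted p = 0.001). All 3 were weak in this line. They lie on chromosome 7, SLC26A5 at chr7:103352730-103446177, SLC26A4 at chr7:107660635-107717809 and SLC26A3 at chr7:107765467-107803225. Other SLC26 genes did not share the direction: the sulfate carrier SLC26A2 and SLC26A11 fell (-0.39 and -0.35), and the SLC26A11 call was lost without SRMS-labelled replicate 2 or vector replicate 2 or 3 (limma adjusted p = 0.0622 to 0.0749), and SLC26A6 had -0.094 without passing. SLC26A6 passed as lower with the replicate block (limma adjusted p = 0.0229, with 2.32e-05 to 0.327 over all alternatives), while aligned on the median its value was 0.066. The promoters of SLC41A3 and SLC26A3 are given here, as the carriers with the largest drop after SLC6A17 and the largest rise on the log2(signal + 0.5) scale.
SLC41A3, chr3:126084125-126084374, minus strand: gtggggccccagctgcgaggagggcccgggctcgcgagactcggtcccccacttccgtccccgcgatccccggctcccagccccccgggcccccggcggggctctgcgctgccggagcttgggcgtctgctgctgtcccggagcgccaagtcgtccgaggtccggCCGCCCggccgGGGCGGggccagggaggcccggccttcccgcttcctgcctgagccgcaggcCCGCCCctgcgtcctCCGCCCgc
SLC26A3, chr7:107803224-107803473, minus strand: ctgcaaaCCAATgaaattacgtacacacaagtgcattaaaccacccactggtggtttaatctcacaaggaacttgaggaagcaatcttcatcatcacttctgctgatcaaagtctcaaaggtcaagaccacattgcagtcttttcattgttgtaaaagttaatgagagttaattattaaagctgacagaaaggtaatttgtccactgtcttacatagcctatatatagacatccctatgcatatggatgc
The SLC41A3 promoter has 4 GC boxes and that of SLC26A3 has a CCAAT box and no GC box in these bases.

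SLC12A2 (NKCC1), which brings sodium, potassium and chloride into the cell, had 33.6, 32.4 and 32.4 in SRMS-labelled and 46.2, 45.7 and 49.6 in vector libraries (log2 fold change -0.52, SE 0.048, limma adjusted p = 1.25e-05). Of the kinases that act on it, WNK1 fell (175, 149 and 154 in SRMS-labelled and 232, 215 and 212 in vector libraries; log2 fold change -0.46, limma adjusted p = 9.89e-05), OXSR1 fell (-0.30) and STK39 rose (0.29). Aligned on the median OXSR1 had -0.14 and no longer passed (limma adjusted p = 0.0504). The phosphate carriers SLC20A1 and SLC20A2 fell by a like amount, SLC20A1 to 268, 244 and 244 in SRMS-labelled libraries, against 319.9, 292 and 301 in vector libraries (log2 fold change -0.27, SE 0.047, limma adjusted p = 0.000659), and SLC20A2 by 0.27 on the log2 scale. SLC34A3, another phosphate carrier, was near a signal of 1 and rose (0.69).

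Among carriers that set cell pH, SLC4A2 (AE2), a chloride-bicarbonate exchanger and the most abundant ion carrier per kilobase, did not pass (529 ± 15.98 in SRMS-labelled and 504 ± 11.8 in vector libraries, SD, n = 3 each; log2 fold change 0.069, limma adjusted p = 0.119), though it passed as higher with the replicate block (limma adjusted p = 0.00387, with 1.76e-08 to 0.361 over all alternatives). SLC4A7, a sodium-bicarbonate cotransporter, did not pass either (log2 fold change -0.11, limma adjusted p = 0.148; 95% interval -0.25 to 0.026); it passed as higher, at 0.18, with the length and GC trend removed (limma adjusted p = 0.00239). The sodium-driven exchanger SLC4A8 fell (-0.62) and SLC4A11 rose (0.44). Of the listed genes named as carbonic anhydrases, CA13 fell (-0.76). CA9 rose (0.57), at 0.365, 0.385 and 0.4796 in SRMS-labelled and 0.134, 0.131 and 0.0697 in vector libraries. CA11 rose (0.29). Its call was lost without SRMS-labelled replicate 1 or 2 or vector replicate 1, 2 or 3 (limma adjusted p = 0.0646 to 0.101). With the length and GC trend removed, CA11 did not pass either (0.11, limma adjusted p = 0.474). The names do not show that each gene encodes an active enzyme.

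In the class of nucleosides and nucleobases only SLC17A9 passed, and it carries the nucleotide ATP. Of the 4 SLC29 carriers of nucleosides 0 passed, though 2 had an unadjusted limma p under 0.05. SLC29A1 (ENT1), the main equilibrative nucleoside carrier and the entry route of several nucleoside drugs, had 108, 116 and 124 in SRMS-labelled and 122, 128 and 127 in vector libraries, with overlap (log2 fold change -0.11, limma adjusted p = 0.074; 95% interval -0.22 to -0.0031). It passed as lower with the replicate block (limma adjusted p = 0.00146) and without SRMS-labelled replicate 3 (0.0211), in a range of 9.56e-09 to 0.464 over all alternatives; aligned on the median its sign changed, to 0.046. SLC29A2 (ENT2) was low and did not pass (log2 fold change 0.20, limma adjusted p = 0.238; 95% interval -0.11 to 0.51), but passed as higher aligned on the median (0.36, limma adjusted p = 0.045). Of 7 members 1 rose and 0 fell (2 were lower at an unadjusted limma p under 0.05, and 0 by edgeR or DESeq2); aligned on the median 3 were higher and 0 lower, and with the replicate block 2 were higher and 2 lower. Without SRMS-labelled replicate 3 the counts were 2 higher and 1 lower, and without SRMS-labelled replicate 2 1 was lower. The gene that rose was SLC17A9, a carrier of ATP into vesicles, at 0.511, 0.687 and 0.544 in SRMS-labelled and 0.1004, 0.153 and 0.0697 in vector libraries (log2 fold change 0.83, SE 0.13, limma adjusted p = 0.000309).

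SLC35 carriers of known substrate mostly feed nucleotide sugars and related donors from the cytosol into the Golgi and the endoplasmic reticulum. The class takes in the whole family, and substrates of its SLC35E, SLC35F and SLC35G members are uncertain. Its counts are therefore those of a family and not of nucleotide sugar transport alone. Of 26 members 6 rose and 9 fell, with 11 higher and 6 lower aligned on the median. SLC35B2, which brings the sulfate donor PAPS into the Golgi, had 137, 141 and 141 in SRMS-labelled and 101, 104 and 99.2 in vector libraries (log2 fold change 0.46, SE 0.036, limma adjusted p = 3.9e-06). The UDP-galactose carrier SLC35A2 rose to 30.7, 32.1 and 33.3 in SRMS-labelled libraries, against 25.6, 23.7 and 24.6 in vector libraries (log2 fold change 0.37, SE 0.054, limma adjusted p = 0.000222). SLC35A4 (0.30) and SLC35B1 (0.30), an ATP-ADP exchanger of the endoplasmic reticulum, also rose. SLC35D1, a carrier of UDP-glucuronic acid, had 6.896, 6.49 and 5.403 in SRMS-labelled and 10.04, 8.84 and 9.04 in vector libraries (log2 fold change -0.54, SE 0.10, limma adjusted p = 0.00111), and the CMP-sialic acid carrier SLC35A1 (-0.37), SLC35B4 (-0.42), SLC35F6 (-0.45) and SLC35F2 (-0.40) fell. The transcripts of genes named here as higher ranged from 1611 to 3617 nt and those named as lower from 1851 to 6797 nt.

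Among carriers of vitamins and heme the folate carriers differed in direction. SLC19A1, the reduced folate carrier, which also takes up methotrexate, had 35.8, 42.6 and 44.03 in SRMS-labelled and 53.7, 57.3 and 56.8 in vector libraries (log2 fold change -0.45, SE 0.071, limma adjusted p = 0.000371). SLC46A1, the proton-coupled folate carrier, had 7.11, 6.104 and 6.33 in SRMS-labelled and 4.98, 4.39 and 4.29 in vector libraries (log2 fold change 0.47, SE 0.098, limma adjusted p = 0.00201); its exons overlap those of SARM1 on the opposite strand over a long stretch. The riboflavin carrier SLC52A2, which could share reads with its close copy SLC52A1, rose (0.28). Of the ascorbate carriers, SLC23A1 rose to 1.46, 2.23 and 1.73 in SRMS-labelled libraries, against 0.636, 0.786 and 0.697 in vector libraries (log2 fold change 0.92, SE 0.14, limma adjusted p = 0.00029). SLC23A2 fell (-0.22) but lost the call without SRMS-labelled replicate 2 or 3 or vector replicate 1, 2 or 3 (limma adjusted p = 0.0655 to 0.0943), and so did the heme carrier SLC48A1 (-0.29) without SRMS-labelled replicate 2 or 3 or vector replicate 1 or 3 (limma adjusted p = 0.0661 to 0.0981). The class counted 4 higher and 3 lower of 13, and 7 higher and 1 lower aligned on the median. Without vector replicate 1 or 3 or SRMS-labelled replicate 2 or 3 its lower count was 1.

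Of 8 carriers of choline and fatty acids, 4 rose and 1 fell. SLC27A5, a fatty acid carrier and bile acid-CoA ligase known from liver, had 6.42, 6.98 and 7.39 in SRMS-labelled and 3.78, 3.1 and 2.63 in vector libraries (log2 fold change 1.03, SE 0.12, limma adjusted p = 5.83e-05). SLC44A5, a choline carrier-like protein, had 6.604, 5.66 and 5.403 in SRMS-labelled and 3.45, 4.104 and 3.71 in vector libraries (log2 fold change 0.59, SE 0.11, limma adjusted p = 0.000905). Its relative SLC44A2 rose (0.18; call lost without SRMS-labelled replicate 2 or vector replicate 1 or 3, limma adjusted p = 0.0534 to 0.0913), as did SLC27A3 (0.45; call lost without SRMS-labelled replicate 3 or vector replicate 3, limma adjusted p = 0.0504 to 0.0516). SLC27A3 shares exon bases with INTS3 on the same strand, so reads of these genes may not be separated. SLC44A1, the main choline carrier of the family, did not pass (log2 fold change -0.23, limma adjusted p = 0.0557; 95% interval -0.43 to -0.023); it passed as lower with the replicate block (limma adjusted p = 0.00457), without vector replicate 3 (0.0211) and without SRMS-labelled replicate 1 (0.015), in a range of 0.00457 to 0.536 over all alternatives; with the length and GC trend removed its sign changed, to 0.064. The gene that fell, SLC27A4, changed by -0.13 only, turned to 0.034 with libraries aligned on the median, and lost the call without SRMS-labelled replicate 1, 2 or 3 or vector replicate 2 or 3 (limma adjusted p = 0.05 to 0.156). The class had 4 higher and 0 lower aligned on the median, and 4 higher and 3 lower with the replicate block. Its higher count was 2 without vector replicate 3, and its lower count was 0 without vector replicate 2 or SRMS-labelled replicate 2 or 3 and 2 without SRMS-labelled replicate 1.

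Carriers of organic ions and drugs were mostly weak: 10 of 19 had a mean signal under 1. SLC22A5 (OCTN2), which imports carnitine, had 1.68, 1.73 and 1.79 in SRMS-labelled and 3.11, 3.89 and 3.21 in vector libraries (log2 fold change -0.80, SE 0.11, limma adjusted p = 0.000163), and SLC22A15 fell as well (-0.62). SLC22A18 rose (0.52) but overlaps SLC22A18AS on the other strand and lost the call without SRMS-labelled replicate 3 or vector replicate 1 or 3 (limma adjusted p = 0.108 to 0.137). SLC22A23 (0.40; call lost without SRMS-labelled replicate 1 or 3 or vector replicate 1 or 3, limma adjusted p = 0.0536 to 0.118) and SLC6A4 (0.45; call lost without SRMS-labelled replicate 1 or vector replicate 2 or 3, limma adjusted p = 0.0513 to 0.0684), the serotonin carrier, rose at low levels. SLC22A3 (OCT3), an organic cation carrier, did not pass (log2 fold change -0.16, limma adjusted p = 0.273; 95% interval -0.42 to 0.10). In all 4 rose and 2 fell, with 5 higher and 2 lower aligned on the median and 4 of each with the replicate block; the higher count was 1 without vector replicate 3 and 2 without vector replicate 1 or SRMS-labelled replicate 1 or 3.

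Of 5 carriers with other or unassigned substrates, SLC22A17, a lipocalin receptor (log2 fold change 0.67, limma adjusted p = 0.00771), and SLC66A3 (0.35) rose and SLC46A3 fell (-0.25); SLC46A3 lost the call without SRMS-labelled replicate 1, 2 or 3 or vector replicate 1, 2 or 3 (limma adjusted p = 0.0613 to 0.103). The name pattern also admits 5 genes that are not carriers (SLC2A4RG, SLC4A1AP, SLC7A6OS, SLC22A18AS and SLC26A10P). In the limma fit without a block 0 of these passed and 0 had an unadjusted p under 0.05, and edgeR and DESeq2 called 0 of them. With the replicate block SLC2A4RG passed as lower (limma adjusted p = 0.00175) and SLC7A6OS and SLC26A10P as higher (0.0218 and 0.0394); aligned on the median, 3 were higher and 0 lower. SLC8B1, SLC30A9 and SLC41A3 have been placed in mitochondria although their families are not SLC25; SLC8B1 and SLC30A9 did not pass (log2 fold changes -0.12 and 0.037), though SLC30A9 passed as higher aligned on the median (limma adjusted p = 0.000574).

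Levels between carriers were compared as mean signal per kilobase of transcript. The 5 highest members were SLC3A2 at 279 in SRMS-labelled and 208 in vector libraries, SLC1A5 at 124 in SRMS-labelled and 112 in vector libraries, SLC4A2 at 107 in SRMS-labelled and 102 in vector libraries, SLC20A1 at 74.5 in SRMS-labelled and 90.01 in vector libraries, and SLC39A7 at 79.2 in SRMS-labelled and 69.5 in vector libraries. SLC3A2 stood above all others in both groups, and of these 5 genes SLC3A2, SLC1A5 and SLC39A7 rose, SLC20A1 fell and SLC4A2 did not pass. The 14 members with a mean signal over 100 gave 6 higher and 4 lower, where 943 and 498 of 2034 genes at that level did. The summed signal of all members was 6245, 6133 and 6173 in SRMS-labelled libraries, against 6279.8, 6195 and 6177 in vector libraries, so the groups overlapped.

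Direction went with transcript length, in carriers as in the whole table. Of the 72 members with the shortest transcripts 26 rose and 9 fell, of the 71 in the middle 15 rose and 16 fell, and of the 72 longest 6 rose and 30 fell. All genes in the same length ranges gave 2592 higher and 786 lower of 6093, 668 and 1202 of 3517, and 476 and 2245 of 4419. As a description across genes, which share libraries and are not independent, Spearman's rho between log2 fold change and transcript length was -0.356 over 215 members and -0.456 over 14029 genes. Exceptions among the members were SLC41A3, which fell with 1797 nt, and SLC13A3 and SLC44A5, which rose with 4017 and 4406 nt. With the length and GC trend removed from each library and replicates blocked, 66 members came out higher and 56 lower, where 28.6% and 32.6% of all genes did, and the members' median log2 fold change was 0.053. In that fit SLC38A2 had -0.63, SLC7A1 -0.52, SLC7A5 -0.21, SLC3A2 0.29 and SLC12A2 -0.26 on the log2 scale, in the direction found without the correction. SLC38A1 had -0.16, against -0.43 without it. SLC7A2 (-0.028), SLC36A4 (0.017) and the partner gene LAPTM4B (-0.039) lost their calls, and SLC36A4 and LAPTM4B their sign. What gives rise to the length trend was not tested.

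**Figure D5:**
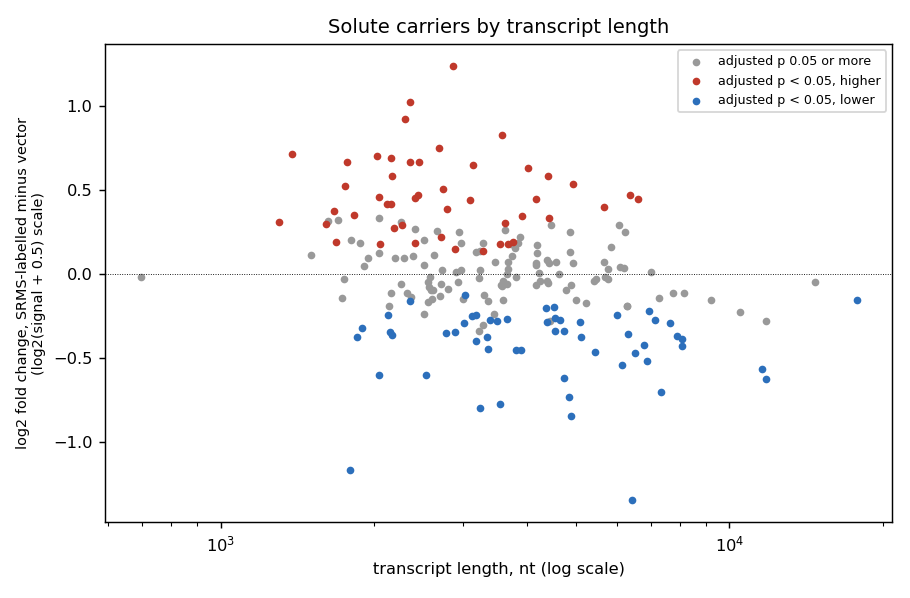
Log2 fold change, SRMS-labelled minus vector libraries, of each carrier against the length of its transcript in nucleotides (log axis); points are genes, coloured by the call. Genes coloured higher lie mostly at the left and genes coloured lower mostly at the right.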

How the data were processed

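Poly(A) RNA was sequenced as stranded TruSeq paired ends, per the labels' protocols. FastQC, cutadapt, HISAT2, StringTie and edgeR with build GRCh38 are named in the submitters' processing notes, with versions, settings and any low-count filter not given in the sources used. The authors deposited 1 table named as log CPM, but its values are a linear signal: read counts over each library's effective size, scaled as CPM. In units of a single read, the values were whole to within 0.1 for at least 99.99% of values. The planned test applied to these values was limma 3.58.1 in R 4.3.3 (trend option) on log2(value + 0.5), over 14029 genes after 13 Y-chromosome copies were left out, with Benjamini-Hochberg adjustment.

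Members, substrate classes and the partner list were chosen with earlier results of these data known; classes come from general knowledge of substrates. Named were 23 fixed carriers and, per class, up to 3 highest and 3 lowest passing members without overlap and with a mean signal of at least 1, which gave 65; the text gives most of them, and other genes were named after their values were seen. Lengths and coordinates are those of GENCODE 29, with 1 transcript a gene. Counts were simulated for this comparison over the 14029 genes, with 200 genes changed, none of them with very few reads. In these counts limma recovered 88% of 1.5-fold and 95% of 2-fold changes. Smaller changes, a replicate effect and a length trend were not simulated. The scatter among simulated replicates was set in advance and not estimated from these libraries. Far fewer genes were changed than the 56.8% that passed in the data. The recovered shares therefore do not measure the power of the test in these libraries. Replicates 2 and 3 differed least (chi-square per gene 1.65 for SRMS-labelled and 1.79 for vector, against 3.55 to 5.07 for pairs with replicate 1) and were kept as separate samples. The labels give both groups replicate numbers 1 to 3, and the replicate block takes these numbers as pairs. Deviations of same-numbered libraries correlated with r of 0.309, 0.106 and 0.1198 across genes. Replicates 2 and 3 correlated as much across numbers (0.114 and 0.113). The check therefore does not show that replicates 2 and 3 are paired by number, and block fits rest on that assumption. Alternatives were alignment on the median, pseudocount 1, a mean log2 value of at least 1, the replicate block, edgeR 4.0.16 and DESeq2 1.42.0 on recovered counts, replicates 2 and 3 averaged, and each library left out. Leaving out replicate 1 of both groups, and a replicate block with length and GC trends removed (natural splines with 4 degrees of freedom), were added after seeing the data.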

Additional observations from a re-analysis of the deposited data

How the results depend on the processing

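Aligned on the median, 6254 genes were higher and 2510 lower over the table, and 81 and 30 members with a median of 0.14. By class the counts of higher and lower were then 11 and 8 for amino acids, 2 and 3 for carboxylates, 4 and 0 for choline and fatty acids, 14 and 4 for inorganic ions, 12 and 1 for metals, 3 and 0 for nucleosides, 11 and 6 for SLC35, 7 and 1 for vitamins and heme, and 10 and 5 for partner genes. Among called members SLC27A4 (0.034), SLC37A4 (0.0019) and SLC35E3 (0.0071) changed sign there, and so did SLC30A1 (0.13) and SLC29A1 (0.046). With length and GC trends removed, amino acids had 11 higher, carboxylates 2, inorganic ions 15, metals 3 lower, nucleosides 2 lower and organic ions 4 lower, the members' median was 0.053, and SLC30A1 (0.21) and SLC4A7 (0.18) changed sign, as did the called SLC36A4 (0.017), SLC35E3 (0.087) and LAPTM4B (-0.039). With a mean log2 value of at least 1, sugars had 3 higher, nucleosides 0, organic ions 2 higher and 1 lower, vitamins 2 higher, and the members' median was -0.079. Members past an absolute log2 fold change of 1 numbered 2 with pseudocount 1, 16 by edgeR and 13 by DESeq2. The shares of all genes past it in these settings are not given here. Choline and fatty acids had 0 lower by both count tests, and vitamins 1 lower by DESeq2. With replicates 2 and 3 averaged, choline and fatty acids had 2 higher and 0 lower, and vitamins 1 lower. The cause of these shifts was not tested.

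The replicate block, which pairs libraries by number, gave choline and fatty acids 3 lower, nucleosides 2 higher and 2 lower, organic ions 4 lower, and SRMS a call at a log2 fold change of 0.52; of the 65 carriers chosen by rule it changed the calls of SLC29A1 and SLC44A1 only. Over all members it added 23 calls and ended 1. Over all genes the share called also grew with the block, from 26.6% to 31.0% higher and from 30.2% to 34.3% lower. Without replicate 1 of both groups, choline and fatty acids had 3 lower, nucleosides 2 lower, organic ions 2 higher, and SRMS passed at 0.51. With single libraries left out, choline and fatty acids had 2 to 4 higher and 0 to 2 lower, metals 3 to 6 lower, nucleosides 1 to 2 higher and 0 to 1 lower, organic ions 1 to 5 higher and vitamins 1 to 3 lower; the log2 fold change of SRMS was 0.23 to 0.84. Of 102 members called, 27 lost the call in at least 1 such fit, 22 of them without vector replicate 3. The share of all called genes that lost the call in this way is not given here, so carriers cannot be set against it.

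Depth limits the 46 members with a mean signal under 1, whose fold changes depend on the pseudocount. SRMS itself did not separate the groups as labelled, and the PBS libraries were not analysed here, so the part of SRMS or of cisplatin in these differences was not tested.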
